A study of Homo sapiens with 4 samples.

Results

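The genes described here encode regulators of pre-mRNA splicing: the SR proteins (SRSF genes), the SR-like TRA2 proteins, the heterogeneous nuclear ribonucleoproteins (hnRNPs), the CLK and SRPK kinases and the numbered RNA-binding motif (RBM) proteins. They were chosen by gene symbol alone, without pseudogenes whose symbols end in P and a number, and 73 of the 13957 genes in the deposited table belonged to them. Of these, 11 were SR protein genes, 2 were TRA2 genes, 21 were hnRNP genes, 4 were CLK genes, 2 were SRPK genes and 33 were RBM genes. RNA came from MDA-MB-231 Fluc cells, a triple-negative breast cancer cell line that carries an inserted luciferase gene for imaging. Cells in 2 samples were treated with 50 μM cordycepin, an adenosine analogue, and cells in 2 samples with the vehicle DMSO, all for 2 h. The labels number the samples of each treatment but do not say whether they were separate cultures. The experiment asked how this breast cancer line responds to a compound also studied in MCF-7 cells.

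The value used for each gene was the authors' mean log2 CPM (CPM is the read count of a gene scaled to the same total in every library) over all 4 libraries. It pools cordycepin and DMSO, so the levels below belong to both groups together and no difference between them was tested here. The table gives no value per library, so the depth of each library and the spread between duplicates are unknown, and no level below carries an error. A difference between genes is therefore given as a description. Levels of different genes were set against each other per length, as log2 CPM per kilobase of the gene length in the table or, where named, of the canonical transcript. Values in CPM are given as read totals, which also grow with the length of a gene.

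SR proteins bind exonic enhancers through RNA recognition motifs and help the spliceosome to select splice sites through their arginine-serine-rich domains. The TRA2 proteins have the same kind of domain. SRPK kinases phosphorylate these domains mainly in the cytoplasm and CLK kinases in the nucleus, which controls where SR proteins reside and when they are active. Many hnRNPs coat nascent transcripts and often act against inclusion of an exon, although both groups can act either way. RBM genes share a name for an RNA-binding motif, and their products range from spliceosome subunits to factors of RNA decay.

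The labelled cell line was checked against its markers. Of 12 genes expected in MDA-MB-231 cells, 11 had a row in the table, with mean log2 CPM between 7.72 for PLAU and 10.57 for CD44, and SPARC had no row. Of 14 genes not expected, 4 had a row, namely ERBB2 at 6.49, GATA3 at 4.48, EPCAM at 3.68 and CDH1 at 3.68. The oestrogen and progesterone receptor genes ESR1 and PGR had none. The lowest mean log2 CPM in the whole table was 0.56 and the median was 4.58.

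Most annotated members of the families had a row. GENCODE release 44 lists 83 protein-coding genes with matching symbols, and 72 of them were among the members. The member beyond these, RBM8B, is listed as a processed pseudogene. Its symbol passes the rule, so it counts among the 33 RBM genes throughout. Of the 11 others, HNRNPA1L3 was present by its gene identifier under the older pseudogene symbol HNRNPA1P48, which the symbol rule leaves out. The remaining genes had no row in the table: SRSF12, HNRNPCL1, HNRNPCL2, HNRNPCL3, HNRNPCL4, RBM11, RBM20, RBM34, RBM44 and RBM46. The rule by which genes of low counts were left out of the table is not given in the sources used here. The members were spread over 19 chromosomes, with at most 8 on one of them, chromosome 1.

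With the table's gene lengths, the hnRNP genes had the highest median level and the CLK genes the lowest, and the place of the CLK genes turned with the length used, as given further on. The median was 6.0 log2 CPM per kilobase over the 21 hnRNP genes, 5.13 over the 11 SR protein genes, 4.18 over the 2 TRA2 genes, 3.79 over the 2 SRPK genes, 2.67 over the 33 RBM genes and 1.67 over the 4 CLK genes. The median of all genes in the table was 2.43. As linear values, the hnRNP median was thus 11.8 times the median of all genes and the SR protein median 6.5 times. All hnRNP and all SR protein genes were above the table's median, compared with 18 of 33 RBM genes and 2 of 4 CLK genes. Of the hnRNP genes, 17 (81.0%) were among the highest 10% of all genes per length. Only 3 of the 11 SR protein genes and 3 of the 33 RBM genes were, and none of the TRA2, SRPK or CLK genes. The 73 genes together held 1.45% of the sum of CPM over all genes, of which hnRNP genes held 0.927%, RBM genes 0.250% and SR protein genes 0.212%.

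**Figure D1:**
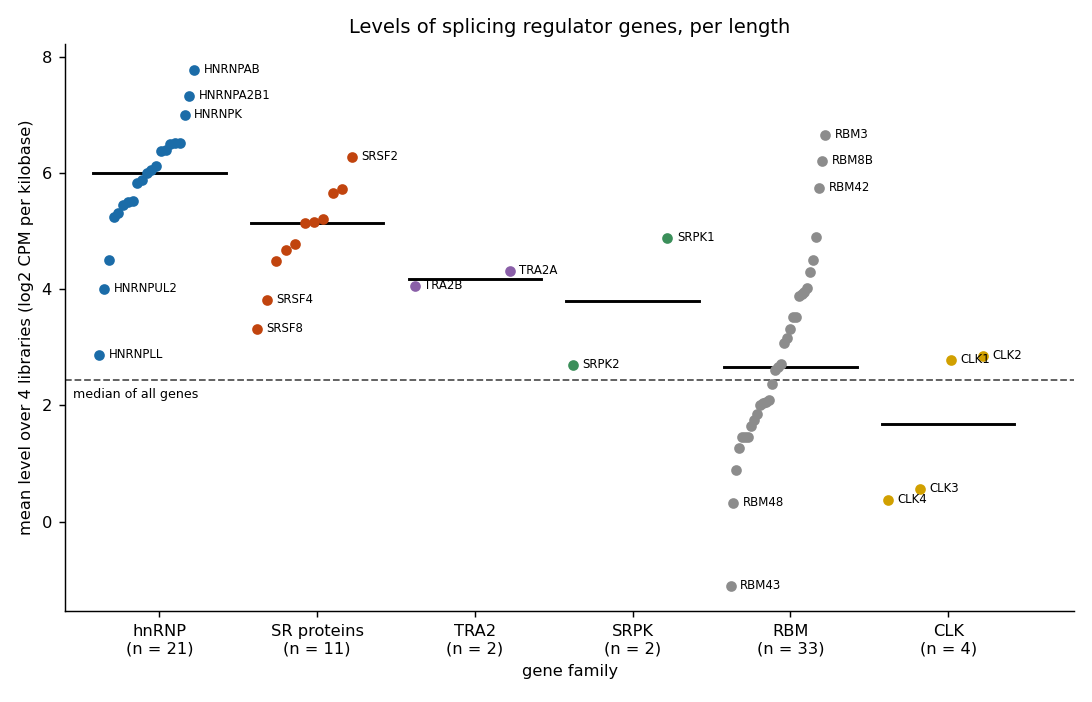
Mean level of each of the 73 splicing regulator genes over the 4 libraries (vertical axis, log2 CPM per kilobase of gene length), by family (horizontal axis). Each point is a gene, bars are family medians and the dashed line is the median of all genes at 2.43; the hnRNP and SR protein points all lie above the line, while RBM and CLK points lie on both sides of it.

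The SR protein genes lay between 3.31 and 6.26 log2 CPM per kilobase. SRSF2 (chromosome 17, 76734115 to 76737333), which encodes SC35 of nuclear speckles, had the highest level with the table's length, at 6.26. It was followed by SRSF3 at 5.72, the smallest SR protein, and SRSF9 at 5.66. SRSF6, SRSF5 and SRSF7 were at 5.20, 5.15 and 5.13. SRSF10, whose dephosphorylated product represses splicing after heat shock, was at 4.78, followed by SRSF1 (SF2/ASF) at 4.67 and SRSF11 at 4.49. Lowest were SRSF4 at 3.81 and SRSF8, an SR gene derived from SRSF2 by retroposition, at 3.31. With the canonical length, SRSF9 came first at 7.34, followed by SRSF5 at 6.99 and SRSF2 at 6.92, while SRSF6 was at 5.37 and SRSF7 at 5.91. The table length of SRSF5 is 3.58 times its canonical length and that of SRSF6 1.12 times, so the order within the family rests on the length used. SRSF8 was lowest with either length, at 3.22 with the canonical one.

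The SR-like genes TRA2A and TRA2B, whose products bind GAA-rich enhancers, were near each other per length, at 4.31 and 4.05 log2 CPM per kilobase. Their order turned with the length used. The mean log2 CPM was 7.76 for TRA2B, on a table length of 13084 bases, and 6.13 for TRA2A, on 3516 bases. With the length of the canonical transcript, TRA2B was higher, at 5.70 against 5.29 log2 CPM per kilobase.

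Among the kinases, SRPK1 (chromosome 6, 35832966 to 35921342) stood above the others, at 4.88 log2 CPM per kilobase. SRPK2 was at 2.70. The nuclear kinase genes CLK2 and CLK1 were at 2.86 and 2.78, and CLK3 and CLK4 were at 0.57 and 0.38. As read totals, the mean log2 CPM was 5.15 for CLK1, 4.92 for CLK3, 4.73 for CLK2 and 3.36 for CLK4. CLK3 (chromosome 15, 74598500 to 74645414) has a table length of 20443 bases, which is 11.0 times its canonical transcript of 1854 bases. With the canonical length, CLK3 was at 4.03 log2 CPM per kilobase, CLK1 at 4.27, CLK2 at 3.62 and CLK4 at 2.04. With that length SRPK1 was at 5.50, still the highest, and SRPK2 was at 3.49, below CLK1, CLK3 and CLK2.

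The place of the CLK family therefore depended on the length. The table's length equalled the union of all exons of a gene in GENCODE release 44 for 73.7% of genes, so it counts introns that any annotated transcript retains. With canonical lengths the CLK median was 3.83 log2 CPM per kilobase, above the RBM median of 3.25 and the median of all genes of 3.04, and 3 of the 4 CLK genes were above the latter. The other families kept their order, with medians of 6.71 for hnRNP, 5.75 for SR protein, 5.49 for TRA2 and 4.49 for SRPK genes. The median ratio of table length to canonical length was 2.98 for CLK genes and 2.55 for TRA2 genes. It was 1.68 for SR protein genes, 1.43 for hnRNP genes, 1.36 for RBM genes and 1.35 for all genes.

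**Figure D2:**
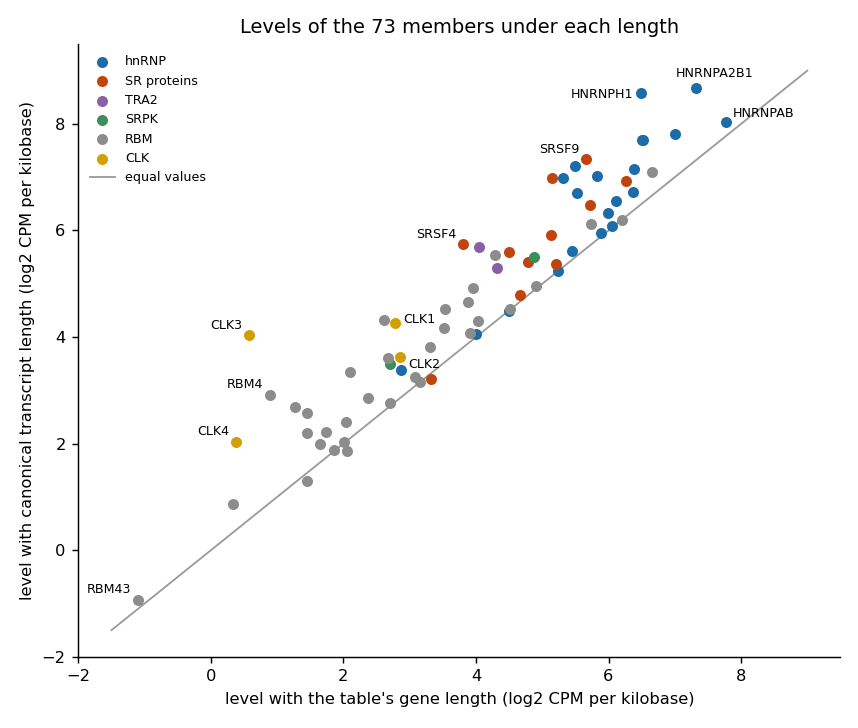
Level of each member with the table's gene length (horizontal axis) against its level with the length of the canonical transcript (vertical axis), both in log2 CPM per kilobase. Points are genes coloured by family and the line marks equal values; CLK3 lies farthest above the line, at 0.57 and 4.03.

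Of the hnRNP genes, HNRNPAB (chromosome 5, 178204533 to 178211163), whose product is known from the editing of apolipoprotein B mRNA, had the highest level with the table's length, at 7.77 log2 CPM per kilobase. HNRNPA2B1, whose products bind RNA through paired recognition motifs, was at 7.32, and HNRNPK, a poly(C)-binding protein gene, was at 7.0. HNRNPM and HNRNPD (AUF1, an AU-rich element binding protein) followed at 6.52 and 6.51. The mean log2 CPM of HNRNPA2B1 was 10.53, or 1482 CPM. With the canonical length, HNRNPA2B1 was at 8.67 and HNRNPH1 at 8.58, both above HNRNPAB at 8.03. The lowest levels of the family were those of HNRNPA0 at 4.50, HNRNPUL2 at 4.0 and HNRNPLL, a regulator of CD45 splicing in lymphocytes, at 2.87 log2 CPM per kilobase. HNRNPA3 and HNRNPC, which have copies in the genome, were at 5.88 and 5.82. The hnRNP genes other than the 3 lowest lay between 5.25 and 7.77.

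HNRNPA1 (chromosome 12, 54280193 to 54287088), which encodes a splicing repressor, was at 6.11 log2 CPM per kilobase. Its value is uncertain, since how reads that match several places were counted is not given in the sources used here. The genome holds many copies of its mRNA, which share its sequence to differing degrees. The single-exon member HNRNPA1L2 (chromosome 13, 52642425 to 52643796) is such a copy and was at 6.06.

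The table held 25 rows with pseudogene symbols of hnRNP genes, from 8 parent genes. The symbol rule can match such symbols only in the hnRNP family, so pseudogene rows of the other families were not counted. In GENCODE release 44, 24 of the 25 are pseudogenes and HNRNPA1P48 is protein coding. Together these copies held 1703 CPM beside 9322 CPM for the 21 hnRNP genes, or 15.4% of the sum of both. HNRNPA1P7 had a mean log2 CPM of 8.37, HNRNPA1P48 of 8.36 and HNRNPA1P10 of 8.19, beside 8.46 for HNRNPA1 itself. Per length, these copies were at 8.43, 7.41 and 8.24 log2 CPM per kilobase, above HNRNPA1. The 10 copies of HNRNPA1 with such symbols summed to 1023 CPM, which is 2.90 times the 353 CPM of HNRNPA1. Without HNRNPA1P48, the other 9 summed to 695 CPM, or 1.97 times. Of the 1467 CPM of HNRNPA1, HNRNPA1L2 and the 10 copies, HNRNPA1 held 24.1%. Pseudogenes of HNRNPA3 summed to 0.747 times their parent, those of HNRNPC to 0.473 times, those of HNRNPL to 0.253 times and those of HNRNPK to 0.201 times. Those of HNRNPR, HNRNPU and HNRNPD reached at most 0.0158 times.

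The copies that share most sequence with the parent had the highest values. Stretches of 75 bases, as long as a read of the libraries, were compared. Of all 75-base stretches of HNRNPA1P7, 65.0% also occur in a transcript of HNRNPA1, as do 60.0% of those of HNRNPA1P10 and 41.0% of those of HNRNPA1P48. HNRNPA3P6 shared 66.5% with HNRNPA3, and HNRNPCP2 shared 35.6% with HNRNPC. These 5 copies, set apart at 30% after the values were seen, had mean log2 CPM between 7.49 and 8.37. The other 20 shared at most 20.5% and lay between 1.01 and 6.65, the highest being HNRNPKP4, which shared 2.74% with HNRNPK. Across the 25 copies, Spearman's rho between the shared percentage and the mean log2 CPM was 0.82, as a description of copies that share parents and libraries. How reads that match several places were counted is not given in the sources used here, and its part in these values was not tested. With the values of its 10 copies with pseudogene symbols added, but not HNRNPA1L2, HNRNPA1 would be at 8.08 log2 CPM per kilobase of the table's length. That is above HNRNPAB at 7.77, and it would be at 7.68, below HNRNPAB, if HNRNPA1P48 is not added. This sum was not computed with the canonical length, with which HNRNPA2B1 was at 8.67 and HNRNPH1 at 8.58.

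**Figure D3:**
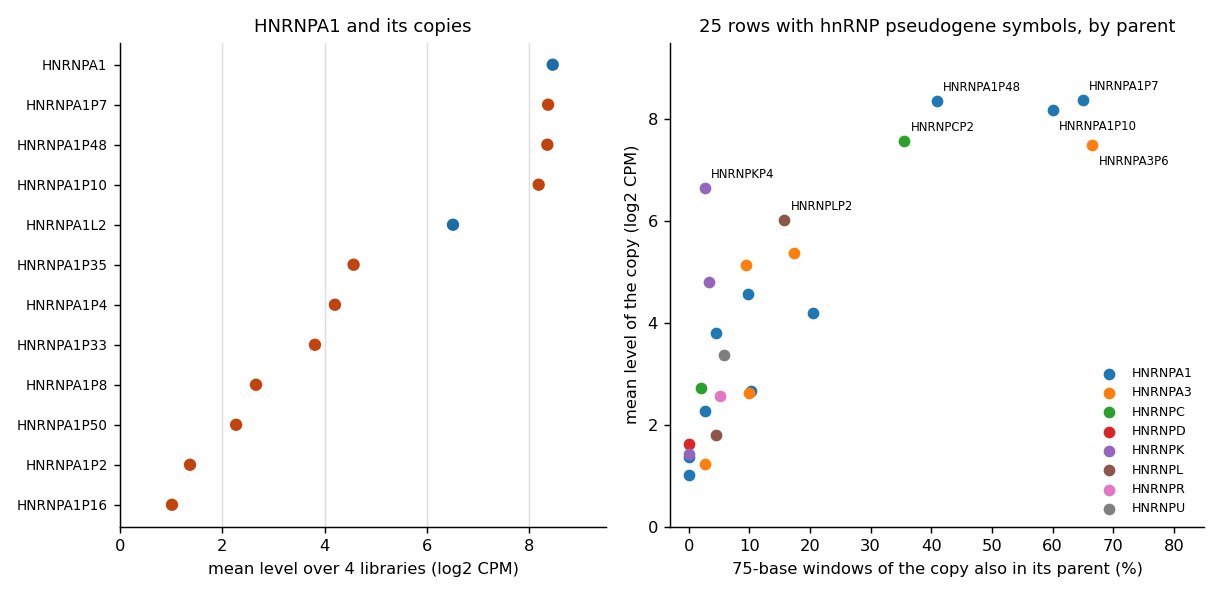
Left, mean log2 CPM over the 4 libraries of HNRNPA1, HNRNPA1L2 (blue) and the 10 copies of HNRNPA1 with pseudogene symbols (red). Right, mean log2 CPM of the 25 hnRNP copies with pseudogene symbols (vertical axis) against the percentage of their 75-base stretches that also occur in the parent gene (horizontal axis), coloured by parent; the 5 that share at least 30% are all at 7.49 or above.

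Of the 73 members, 41 had no 75-base stretch of the canonical transcript in a transcript of any other gene, among them both TRA2 genes and 8 of 11 SR protein genes. At least 10% was shared for 13 members. RBM4 shared 96.8%, with the read-through gene RBM14-RBM4, whose own mean log2 CPM was 1.03. HNRNPA1L2 shared 100%, with an unnamed gene that had no row in the table, and 41.8% with genes that had one. SRSF1 shared 28.0%, with an unnamed gene without a row, and SRSF6 shared 15.5%, of which 4.30% was with genes in the table. HNRNPUL2 shared 45.1% with the read-through gene HNRNPUL2-BSCL2, which had no row. RBM8B shared 28.4% with RBM8A, the gene of the exon junction complex subunit Y14 from which it was copied. Besides, 24 members overlapped another gene of the table, 6 on the same strand and 19 on the opposite strand. RBM12 overlaps CPNE1 on the same strand along 16032 bases, and RBM5 and RBM6 overlap along 11127 bases. The libraries were stranded, but whether counting used the strand is not given in the sources used here. RBM4, RBM5, RBM6, RBM14 and SRSF6 were named for this overlap or sharing after their values were seen.

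RBM genes, the largest family, ranged from -1.10 to 6.66 log2 CPM per kilobase. RBM3 (chromosome X, 48574449 to 48581162), a cold-inducible RNA-binding protein gene, had the highest level, at 6.66, and a mean log2 CPM of 9.20. The processed pseudogene RBM8B was next, at 6.20, on a length of 525 bases, whereas RBM8A was at 3.91 on 5544 bases. Their mean log2 CPM were 5.27 for RBM8B and 6.38 for RBM8A. RBM42 was at 5.74, RBM10, a splicing regulator gene on chromosome X, at 4.90 and RBM12 at 4.51 log2 CPM per kilobase. At the low end with the table's length were RBM4, a splicing regulator gene, at 0.90, RBM48, whose product acts in minor intron splicing, at 0.33 and RBM43 at -1.10. The mean log2 CPM of RBM43 was 1.14. The table length of RBM4 is 4.07 times its canonical length, and with the latter RBM4 was at 2.92, above others such as RBM12B at 1.29, named here after its value was seen. The other 25 RBM genes lay between 1.27 and 4.29, with RBM39 at the upper end. The SD over genes was 1.68 for RBM genes, 1.54 for the 2 SRPK genes, 1.36 for the 4 CLK genes, 1.1 for hnRNP genes, 0.85 for SR protein genes and 0.19 for the 2 TRA2 genes.

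Splicing regulators are known to regulate their own mRNAs through exons that bring in an early stop codon and through retained introns. The annotation was therefore examined for such transcripts, without use of the levels. A gene with more annotated transcripts has more occasions to hold one, and the families were not matched for this. The median number of transcripts was 15 for hnRNP, 14 for SRPK, 13.5 for TRA2 and for CLK genes. It was 11 for SR protein genes, 8 for RBM genes and 8 for all protein-coding genes. In GENCODE release 44, all 11 SR protein genes had at least 1 transcript annotated as a target of nonsense-mediated decay, as had both TRA2 and both SRPK genes, 3 of 4 CLK genes, 14 of 21 hnRNP genes (66.7%) and 12 of 33 RBM genes (36.4%). Of all protein-coding genes in the table, 48.6% had one. The SR protein gene with the most was SRSF7, with 6 such transcripts. HNRNPA2B1 had 35, the most of all members, followed by HNRNPA1 with 18 and RBM39, whose product is related to U2AF, with 16. Transcripts with a retained intron were annotated for 9 of 11 SR protein genes, both TRA2 and both SRPK genes and 3 of 4 CLK genes. Such transcripts were annotated for 15 of 21 hnRNP genes and 16 of 33 RBM genes, compared with 62.1% of all protein-coding genes. CLK1 and CLK3 each had 8 and CLK4 had 7, while CLK2 had 0 of either kind. HNRNPH1 had 19, the most of all members. RBM39 and HNRNPH1 were named after these counts were seen. The deposited values are per gene, so which of these transcripts were present in the cells was not measured.

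**Figure D4:**
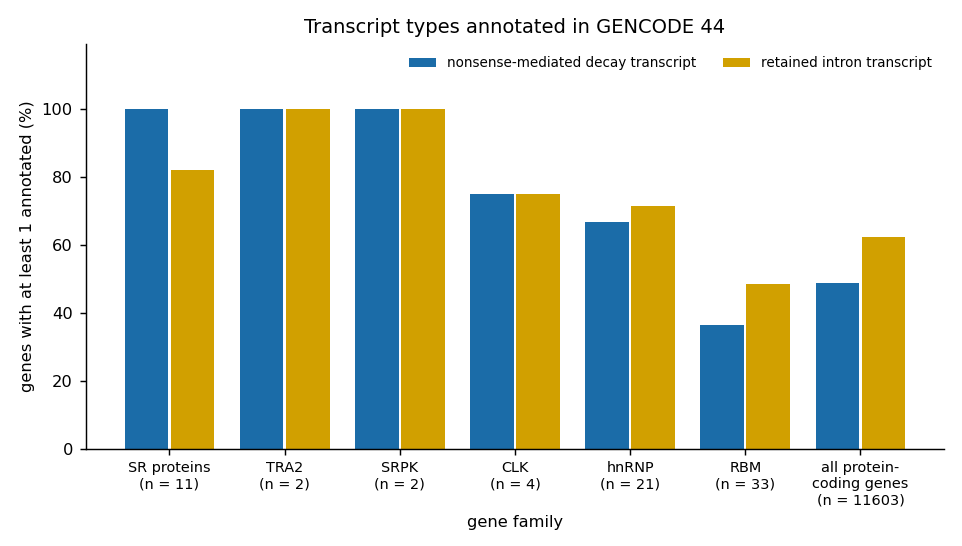
Percentage of genes (vertical axis) with at least 1 transcript annotated in GENCODE release 44 as a target of nonsense-mediated decay (blue) or as retaining an intron (yellow), by family (horizontal axis), beside all protein-coding genes of the table. SR protein, TRA2 and SRPK genes reach 100% for nonsense-mediated decay, and RBM genes are at 36.4%.

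Other genes of the splicing machinery were placed beside the families with lists written from general knowledge. All 45 core spliceosome genes had a row, with a median of 4.80 log2 CPM per kilobase, between the SR protein and TRA2 medians, and 43 were above the median of all genes. Their highest levels were those of SNRPB (8.01), which encodes a core Sm protein, SF3B5 (7.05) and SNRPD2 (6.78), in log2 CPM per kilobase. With the table's length, the lowest were AQR at 2.45, U2AF1 at 2.42 and U2AF1L4 at -0.03. The table length of U2AF1 is 11112 bases and its canonical transcript has 945 bases, so its low place rests on the length used. U2AF1, which encodes the subunit that reads the 3′ splice site, shared 98.6% of its 75-base stretches with U2AF1L5, and their mean log2 CPM were 5.89 and 5.94.

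Of 35 other splicing regulators, 32 had a row, and RBFOX1, NOVA1 and NOVA2, factors best known from neurons and muscle, had none. Their median was 4.23 log2 CPM per kilobase, and 24 were above the median of all genes. PTBP1, a polypyrimidine tract binding protein gene, was at 6.98, NONO at 6.82 and KHSRP at 6.66. With the table's length, the lowest were KHDRBS3 at 0.21, PTBP2, the neuronal counterpart of PTBP1, at 0.06 and MATR3 at -0.23. The table length of MATR3 is 12064 bases and its canonical transcript has 5069 bases, so its place as the lowest rests on the length used. MATR3 shared 98.6% of its 75-base stretches with a second gene of the same symbol that had no row in the table.

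Of 29 other arginine-serine-rich proteins and kinases, 28 had a row, and SRRM4, a neuronal splicing factor gene, had none. Their median was 2.90 log2 CPM per kilobase, below the SR protein median of 5.13. PNN was the highest at 5.82, followed by SRRM2, a scaffold gene of nuclear speckles, at 5.81 and SCAF1 at 5.33. DYRK1B was at 0.77, DYRK1A, another kinase gene whose product phosphorylates splicing factors, at 0.20 and SRRM3 at -1.40.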

How the data were processed

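RNA-seq of 2 cordycepin and 2 DMSO samples of MDA-MB-231 Fluc cells was used. Per the labels, ribosomal RNA was depleted and libraries were stranded, with 75 base paired-end reads. The authors used GRCh38.p13 for mapping and rsubread for counting according to the paper, whereas the submitters' processing notes name TopHat, HTSeq, DESeq, Cufflinks and hg38. The authors' deposited table gives 1 mean log2 CPM per gene over all 4 libraries, together with gene length and position. It also holds the authors' own comparison of cordycepin with DMSO (log2 fold change, F statistic, p-value and adjusted p-value), which was not used. It holds 0 columns of values per sample, so no test between groups could be made and the depth per sample is unknown. Normalization and the filter on low counts are not given in the sources used here.

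Members and lists were chosen with earlier results of these data known. The level per length was mean log2 CPM less log2 of the length in kilobases, without a pseudocount. GENCODE release 44, on the same build, held 13922 of the 13957 gene identifiers, including all 73 members, and gave transcript types and the canonical transcript, and for 59 members both ends were identical in table and annotation. Stretches of 75 bases of canonical transcripts were looked for, on the same strand, in transcripts of all other genes, a search checked on simulated sequences. For every SR protein, TRA2, CLK and SRPK gene a level was named. For hnRNP and RBM genes the 5 highest and 3 lowest per length were named, with some that have copies in the genome. The 3 highest and 3 lowest of each list were also named. Alternatives were the canonical length, means of linear values, a filter on low values, and families without copies, overlapping genes or the highest member. Proteins were not analysed here, and sequences of HNRNPA1 and its copies are not reported here. Python 3.11.15, numpy 2.4.6, pandas 2.3.3 and matplotlib 3.10.9 were used.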

Additional observations from a re-analysis of the deposited data

How the results depend on the processing

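No paired analysis was possible because the deposited values pool the libraries, and for the same reason no replicate could be left out. The planned share of arginine-serine dipeptides was not run, since no protein sequences were used. Of 91 alternative medians, 73 were within 1.5 times the reported one, a limit chosen here in place of a replicate spread. Many of the 73 equal the reported median because the setting left that family unchanged, so this share does not measure stability. Canonical lengths moved 9 of 10 medians beyond the limit. Canonical lengths raised the medians per length to 5.75 for SR protein, 5.49 for TRA2, 6.71 for hnRNP, 3.83 for CLK and 4.49 for SRPK genes, 3.04 for all genes, 5.67 for the core spliceosome, 4.88 for other splicing regulators and 4.16 for other arginine-serine-rich proteins and kinases, by construction where the canonical transcript is shorter. Without the highest member, the CLK median per length was 0.57 and that of SRPK 2.70, and in mean log2 CPM TRA2 was at 6.13 and SRPK at 5.37. The log2 of the mean of linear values was 3.85 for RBM genes per length, and for all genes 4.65 per length and 6.17 in mean log2 CPM. With genes of a mean log2 CPM below 2.88 left out, the median of all genes was 3.06 per length and 5.33 in mean log2 CPM. Leaving out the retrocopy HNRNPA1L2, or adding pseudogene values to parents, could change only the hnRNP medians, which per length became 5.94 and 6.37. Leaving out RBM8B could change only the RBM medians, at 2.64 per length. Without overlapping genes no SRPK gene was left, and the RBM median per length was 2.22. These settings moved 0 medians by over 1.5 times. The settings on RBM8B, HNRNPA1P48, overlapping genes and pseudogene values, and canonical lengths for the gene lists, were chosen after the data were seen.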
